A study of Mus musculus with 74 samples.

Results

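The genes described here encode the chains of the collagens, and were chosen as every gene in the deposited tables of mouse quadriceps muscle whose symbol is Col, a number, the letter a and a number. The rule found 44 chain genes among 24940 genes. Collagens are proteins of the extracellular matrix in which 3 chains, of 1 kind or of several, wind into a triple helix inside the cell before they are secreted. Fibrillar chains build the fibres that carry load in tendon and in the connective tissue around muscle fibres, type IV chains form the sheet of the basement membrane on the surface of muscle fibres and capillaries, and type VI chains form beaded filaments between them. In muscle most collagen messenger RNA (mRNA) is known to come from fibroblasts and other cells between the fibres, and mutations in type VI genes cause inherited muscle disease in humans.

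All mice were C57BL/6 and all samples came from quadriceps. Poly(A) RNA was measured in 5 knockout (KO) mice with AEC-Esr Cre and Bcl6 fl/fl given tamoxifen (TMX), in 4 Cre-negative Bcl6 fl/fl mice given TMX, and in 4 mice with the KO genotype given oil. BCL6 is a transcriptional repressor of the zinc finger family, and the labels do not spell out AEC-Esr, so the cells in which this Cre acts are taken from no source here. In RiboTag mice, cells where Cre is active tag their ribosomes, which can then be pulled down with the RNA stretches they protect (footprints). Footprints and mRNA were measured in the same 4 RiboTag KO mice (AEC-Esr Cre, Bcl6 fl/fl, TMX) and the same 4 RiboTag control mice, which also carry AEC-Esr Cre and were given TMX but have no floxed Bcl6. These animals are called KO mice a, b, c and d and control mice e, f, g and h, and their values are given in that order. The labels name poly(A) RNA for the mRNA libraries but also list the tag antibody for them, so the RNA could be that of the muscle or that bound to tagged ribosomes, and the labels do not settle it. Nascent RNA was measured in 5 samples of wild-type muscle after FX1, known as an inhibitor of BCL6, and in 5 after DMSO. The labels number these nascent samples without naming animals, so whether each is a separate mouse is not known. H3K27ac, the acetyl mark on histone H3 that active regulatory DNA carries, was measured in 3 KO and 3 Cre-negative mice in each of 3 series, named acute (columns marked 1w), chronic (columns marked 12w) and, here, windows (1000 bp at BCL6 peaks, in mice whose numbers are also those of poly(A) RNA samples, P1899 among them), and BCL6 binding in 1 wild-type library. Values of 58 of the 74 samples are used.

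Poly(A) libraries held 6703586 to 7623960 tags and nascent libraries 13947139 to 32670917 tags. RiboTag libraries held 3248807 to 4370468 counts in genes for footprints and 6499561 to 13045854 for mRNA, and H3K27ac libraries 7794885 to 23016334 tags. Over the whole gene, Bcl6 was lower by 0.24 on the log2 scale in KO than in Cre-negative poly(A) RNA (adjusted p = 0.0134). In RiboTag libraries its footprints were 68.6 to 110.7 CPM, the usual depth-scaled count, in KO and 116.3 to 260 CPM in control mice (log2 change -1.12, adjusted p = 0.00201), while its mRNA was 188 to 279 CPM in KO and 127 to 304 CPM in control mice (log2 change 0.14, adjusted p = 0.84). The tables give 1 value per gene, so the floxed exons were not seen by themselves. Cartilage genes stood out in some of these libraries. In Cre-negative mouse P1899 the cartilage collagen Col2a1 had a log2 value of 9.59, against 6.53 to 6.63 in the other Cre-negative mice, and Acan, the cartilage proteoglycan, had 5.64 against 4.50 to 4.58. In RiboTag KO mice c and d Acan mRNA was 18.03 and 32.4 CPM, against 1.5 and 1.12 CPM in the other RiboTag KO mice and 0.769 to 1.55 CPM in control mice. Footprints of the same mice held Col10a1, a chain of growth cartilage, at 3.71 and 6.95 CPM, against 0 to 0.475 CPM in the other footprint libraries. In control mouse e the cartilage chain Col9a1 had 12.18 CPM of mRNA, against 0.485 to 2.7 CPM in the other mRNA libraries. Calls lost without P1899, or without mice c and d, are named beside the results. Changes below are log2 of KO over control, or of FX1 over DMSO. A change is said to rise or fall where its p, adjusted by Benjamini-Hochberg over all genes or regions tested, was below 0.05.

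In the control mice the ranking of the chains by level per kilobase of exon was led by the same genes in each kind of RNA. RiboTag counts were taken over gene bodies, introns included, but were also divided by exon length. Their levels per kilobase are therefore approximate. Col1a2, Col1a1 and Col3a1, the chains of the main fibrils, took the top ranks of the 44 chains, in this order, in poly(A) RNA, in RiboTag mRNA and in footprints. Per kilobase, RiboTag mRNA was 323 ± 42.2 CPM for Col1a2, 295 ± 38.3 CPM for Col1a1 and 209.5 ± 48.5 CPM for Col3a1 (SD, n = 4 control mice). Col1a2 and Col1a1 differed by less than their spread, as did Col6a2 (128 ± 24.1 CPM per kilobase), Col6a1 (117 ± 22.1) and Col4a1 (117 ± 9.20), which followed. Near the bottom stood Col6a4, Col25a1 and Col6a5, the 3 chains too low to test in KO and Cre-negative poly(A) RNA (mean log2 value below 3.32), and Col6a4, Col9a3, Col10a1 and Col25a1, the 4 chains too low to test in RiboTag mRNA. The 44 chains together took 0.361% ± 0.103 of the footprint counts in RiboTag KO mice and 0.702% ± 0.125 in control mice (SD, n = 4 each). The highest KO mouse had 0.512% and the lowest control mouse 0.522%, so the groups did not overlap. Of mRNA counts the chains took 0.936% ± 0.0742 in KO and 0.918% ± 0.12 in control mice, with overlapping ranges.

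The difference in footprints was spread over most structural classes of collagen. Of 38 chains tested in footprints, 22 fell in KO mice, 57.9% of them, beside 15.7% of 12979 genes tested, and 0 rose (beside 10.9% of genes; 27 chains had an unadjusted p below 0.05 in either direction, and DESeq2 called 21 lower and 0 higher). The median change was -0.87, against 0.00 over all genes. In mRNA from the same mice 0 of 40 chains fell (2.25% of 14476 genes did), 1 rose (1.95% of genes) and 8 had an unadjusted p below 0.05. DESeq2 called 0 chains lower and 2 higher in mRNA, and the median change was -0.02. No library was split by cell, so fewer cells of a type and less RNA or fewer footprints per cell cannot be told apart. Footprints came from pulled-down ribosomes, and how much of them came from cells without tagged ribosomes was not measured. The plot of changes by chain shows both readouts.

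**Figure D1:**
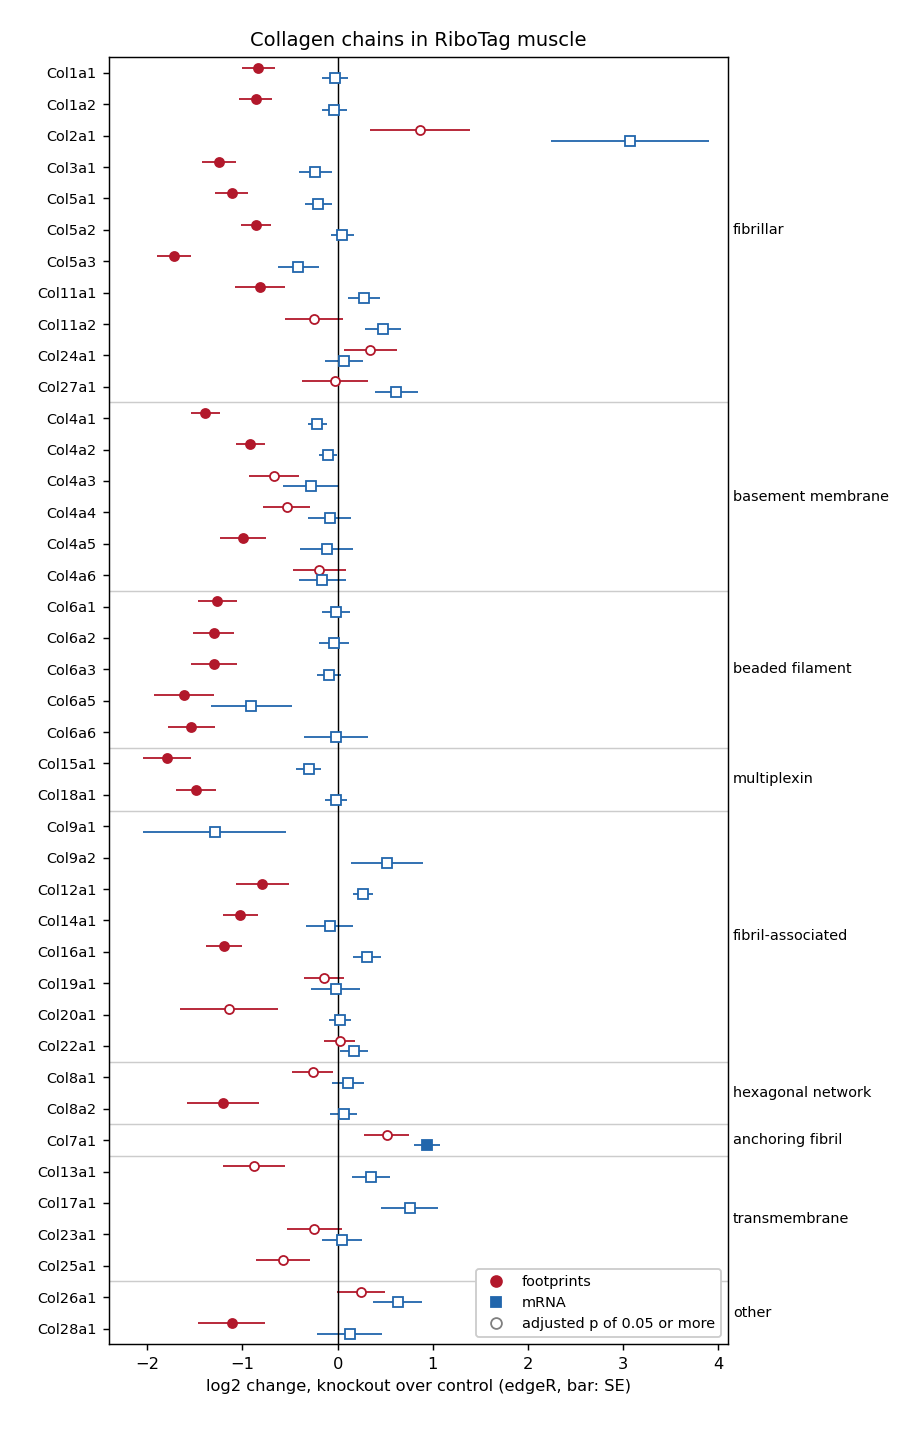
Log2 change in RiboTag KO over control muscle (x axis) of each chain tested (y axis, grouped by structural class), for footprints (red circles) and mRNA (blue squares), with bars for 1 standard error (SE) and filled symbols for an adjusted p below 0.05. The 22 filled red circles lie to the left of 0, between -0.79 (Col12a1) and -1.79 (Col15a1), and the 1 filled blue square is Col7a1 at 0.94.

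Among the fibrillar chains 7 of 11 fell in footprints. Col1a1, the major chain of type I fibrils, had footprint levels of 766, 1174, 703 and 734 CPM in KO mice, against 1796, 1563, 1425 and 1067 CPM in control mice. The groups overlapped through KO mouse b, the highest of its group, and control mouse h, the lowest of its own. The footprint change was -0.83 (SE 0.173, adjusted p = 0.00449), and Col1a2, its partner in the type I helix, changed by -0.86 (SE 0.174, adjusted p = 0.00396). Col1a1 mRNA in the same mice ranged from 1538 to 1994 CPM in KO and from 1434 to 1912 CPM in control mice, a change of -0.03 (SE 0.134). Col3a1, the chain of the thinner type III fibrils, had 348, 526, 256 and 315 CPM of footprints in KO mice, against 868, 894, 924 and 648 CPM in control mice. All KO mice were below all control mice (change -1.25, SE 0.179, adjusted p = 0.000855). The type V chains, which start fibrils and set their width, fell as well, Col5a3 by 1.72, Col5a1 by 1.11 and Col5a2 by 0.86 on the log2 scale. Col5a3 footprints were 25.9, 41.0, 22.8 and 22.2 CPM in KO mice, against 96.8, 92.4, 97.5 and 71.1 CPM in control mice, and the groups were far apart. Col11a1, a relative of the type V chains, fell by 0.81, with KO mice b and d within the control range. The other 4 fibrillar chains, Col2a1, Col11a2, Col24a1 and Col27a1, had changes of 0.87, -0.25, 0.34 and -0.03 that did not pass the test.

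Basement membrane chains differed among themselves. Col4a1 and Col4a2, which form the type IV network found in most tissues, fell by 1.39 (SE 0.152, adjusted p = 0.000161) and 0.92 (SE 0.153, adjusted p = 0.00166) on the log2 scale. Col4a1 footprints were 81.3, 127, 81.5 and 95.0 CPM in KO mice, against 246, 289, 261 and 192 CPM in control mice. KO mice lay below control mice without overlap, and Col4a1 mRNA was 696, 674, 731 and 692 CPM in KO and 772, 735, 718 and 854 CPM in control mice. Col4a5, a chain of the second type IV network, fell by 0.99 (SE 0.243), and Col4a3, Col4a4 and Col4a6 had changes of -0.66, -0.54 and -0.19 that did not pass. The cap on tags per position described under processing may affect 7 highly covered chains (Col1a1, Col1a2, Col3a1, Col4a1, Col4a2, Col6a1 and Col6a2). In their highest libraries they had 1.227 (Col4a2) to 3.837 (Col1a2) counts per exon base in mRNA, and 0.1703 (Col4a2) to 1.38 (Col1a2) in footprints. Tags at single positions were not seen, and whether the cap made these counts understate differences in level was not tested.

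All 5 type VI chains tested fell in footprints, Col6a5 by 1.62, Col6a6 by 1.54, Col6a2 by 1.30, Col6a3 by 1.30 and Col6a1 by 1.26 on the log2 scale. Col6a3, the largest chain of the main type VI helix, had 253, 477, 189.8 and 209 CPM in KO mice, against 659.9, 829.8, 730.5 and 479 CPM in control mice. KO mouse b, with 477 CPM, lay just under control mouse h, and the other KO mice were well below (adjusted p = 0.00281). Col6a3 mRNA was 343, 277.5, 322 and 279.6 CPM in KO and 319.7, 238, 349.8 and 338 CPM in control mice, a change of -0.09. The sixth chain, Col6a4, was too low to test. Both multiplexins, basement membrane collagens with interrupted helices, fell as well: Col15a1 by 1.79 (SE 0.254, adjusted p = 0.000791) and Col18a1, the source of endostatin, by 1.49 (SE 0.21, adjusted p = 0.000761). Col15a1 footprints were 39.4, 95.0, 35.1 and 52.4 CPM in KO mice, against 212, 212, 192 and 132 CPM in control mice, the largest fall among the chains (3.46-fold).

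The remaining classes were mixed. Of 6 fibril-associated chains tested, which decorate the surface of fibrils, Col16a1 fell by 1.2, Col14a1 by 1.02 and Col12a1 by 0.79 on the log2 scale. Col22a1, known from tissue junctions such as that of muscle and tendon, did not: its footprints were 54.5, 66.1, 80.7 and 94.3 CPM in KO mice and 81.5, 66.0, 69.9 and 69.3 CPM in control mice, with overlapping groups (change 0.02, SE 0.163, adjusted p = 0.928). Col19a1 and Col20a1 had changes of -0.14 and -1.14 that did not pass the test. Of the hexagonal network chains, Col8a2, a short chain of vessels and cornea, fell by 1.21 and Col8a1 had -0.26. Col28a1 fell by 1.11, Col26a1 had 0.25, and the 3 transmembrane chains tested, Col13a1, Col23a1 and Col25a1, had changes of -0.88, -0.25 and -0.57 without a call. Col9a1, Col9a2, Col9a3, Col10a1 and Col17a1 were, with Col6a4, the 6 chains too low to test. Leaving out KO mice c and d, which carry cartilage RNA, left 15 chains lower and 0 higher (median change -0.77). The calls lost were those of Col1a1 (-0.63, adjusted p = 0.0644), Col1a2 (-0.72, adjusted p = 0.0527), Col6a5 (-1.27, adjusted p = 0.0568), Col11a1 (-0.80, adjusted p = 0.142), Col8a2 (-0.81, adjusted p = 0.257), Col28a1 (-0.69, adjusted p = 0.291) and Col12a1 (-0.43, adjusted p = 0.365).

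**Figure D2:**
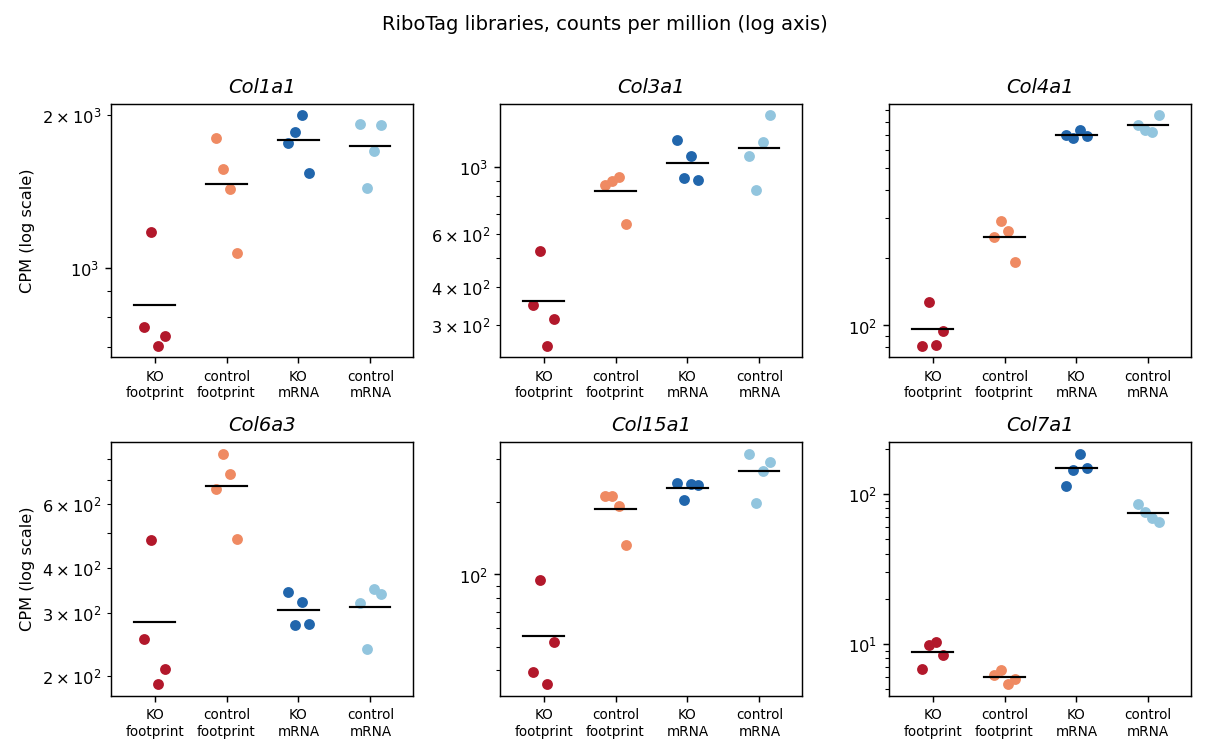
CPM of 6 chains in each RiboTag library (y axis, logarithmic), for KO and control footprints and KO and control mRNA (x axis). Points are mice and lines are group means (n = 4 each). In Col3a1, Col4a1, Col6a3 and Col15a1 all KO footprint points lie below the control ones while the mRNA points overlap, and in Col7a1 the KO points lie above in both readouts.

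Col7a1, the chain of the anchoring fibrils that tie basement membranes to the tissue beneath, went the other way. Its mRNA was 113, 144, 186 and 149 CPM in KO mice, against 86.3, 75.6, 69.5 and 64.9 CPM in control mice. All KO mice were above all control mice, and the rise was 0.94 (SE 0.138, adjusted p = 0.00243). Without mice c and d the rise was 0.73 (adjusted p = 0.0319). Its footprints were few, 6.77, 9.74, 10.3 and 8.34 CPM in KO mice and 6.18, 6.65, 5.36 and 5.84 CPM in control mice, higher in all KO mice but with a change of 0.52 (SE 0.234) that did not pass the test (adjusted p = 0.122). Col2a1 mRNA was 17.2, 12.96, 198.5 and 275.9 CPM in KO mice, against 21.6, 8.44, 14.9 and 11.7 CPM in control mice. The high values are those of mice c and d and the other KO mice lay within the control range, so that the change of 3.07 (SE 0.827, adjusted p = 0.0634) was 0.03 without those mice. Col10a1 had 11.6 and 29.4 CPM in these mice and 0.1 CPM or less in every other mRNA library.

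The mRNA libraries may hold RNA of the muscle or of tagged ribosomes, so footprints and mRNA may come from different cells. Translation efficiency, the footprint change beyond the mRNA change, was tested in 1 model of the 16 RiboTag libraries. It is the term by which the KO effect differs between footprints and mRNA. It fell for 16 of 43 chains tested (37.2%, beside 6.98% of 14935 genes) and rose for 0 (2.93% of genes; 23 chains had an unadjusted p below 0.05 in either direction, and DESeq2 called 19 lower and 0 higher), with a median of -0.90 against 0.05 over all genes. The falls were largest for Col6a6 (1.49 on the log2 scale), Col16a1 (1.46, adjusted p = 0.00466), Col15a1 (1.45) and Col18a1 (1.43, adjusted p = 0.00466). Col5a3 fell by 1.26, Col8a2 by 1.23, Col6a2 by 1.22, Col6a1 by 1.2, Col6a3 by 1.17, and the change of Col4a1 was -1.136. Smaller falls were those of Col3a1 (0.97), Col5a1 (0.87), Col5a2 (0.86), Col1a2 (0.77), Col4a2 (0.77) and Col1a1 (0.76). The count depends on single mice: it was 7 without KO mouse a, 4 without KO mouse c, 8 without KO mouse d, 4 without control mouse f and 7 without control mouse g. Without KO mice c and d 0 chains were called (median -0.70), and 0 of all genes were, with 2 KO mice left. Control mouse e, which had the high Col9a1 mRNA, was kept in that fit, and the count was 11 without mouse e alone. With the animal as a replicate block 20 chains fell. The authors' deposited table of translation efficiency calls 24 of 40 chains lower and 0 higher, and 1887 of 13190 genes lower and 1203 higher.

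The ratio of partner chains within a helix was compared for 5 pairs in footprints and in mRNA, as log2 of the ratio of counts. For Col4a1 over Col4a2, which share a promoter region with their starts 21 bp apart on opposite strands, the footprint ratio was -0.42, -0.35, -0.31 and -0.33 in KO mice, against 0.04, 0.16, 0.13 and 0.17 in control mice. The groups did not overlap, and the difference of -0.48 had the smallest p that an exact two-sided permutation test of 4 against 4 mice can give (p = 0.0286, and 0.19 adjusted over the 10 ratios). In mRNA the same ratio averaged 0.23 in KO and 0.33 in control mice (exact permutation p = 0.143, n = 4 each). For Col5a1 over Col5a2 the footprint ratio averaged -0.14 in KO and 0.13 in control mice (exact permutation p = 0.0571, n = 4 each) and the mRNA ratio -0.05 in KO and 0.20 in control mice (exact permutation p = 0.0571, n = 4 each), both with an adjusted p of 0.19 and with groups that overlap. For Col1a1 over Col1a2 the footprint ratio averaged 0.20 in KO and 0.17 in control mice, and for Col6a1 over Col6a2 it averaged 0.03 in KO and -0.02 in control mice, with overlapping groups. Col6a3 over Col6a1 averaged 1.03 in KO and 1.09 in control footprints.

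Genes that modify, process, bind and degrade collagen were counted from lists of known roles. The shares of all genes called lower were 15.7% in footprints, 2.25% in mRNA and 6.98% in translation efficiency, and those called higher 10.9%, 1.95% and 2.93%. In footprints 12 of 21 genes of chain modification and folding fell, with Sparc, a collagen-binding matrix protein, at -0.91, P3h3, a prolyl hydroxylase, at -1.53 and Serpinh1, the collagen chaperone, at -0.75. Of 13 genes of processing and crosslinking 8 fell, led by Pcolce2 (-1.22), Adamts2 (-1.22), which cuts off the amino end of procollagen, and Pcolce (-1.21). Of 14 degradation genes tested 10 fell (Timp3 -0.76, Mmp2 -1.20, Timp4 -1.66), and of 11 receptors 8 fell (Adgrg1 -1.59, Itga11 -1.48, Ddr2 -1.36). Among 16 regulators of TGF-beta signalling, a main inducer of collagen genes, 6 fell and 4 rose, with Tgfbr3 at -0.88 and Ltbp1 at -1.0. In mRNA 1 of 21 modification genes rose (P3h2, 0.77), and of 16 TGF-beta regulators 2 rose and 1 fell, among them Tgfb3 (0.63) and Smad3 (-0.89). In translation efficiency 9 of 21 modification genes, 6 of 13 processing genes, 7 of 14 degradation genes, 5 of 11 receptors and 3 of 16 TGF-beta regulators fell, and 1 modification gene rose. The genes with the smallest p were P3h3 (-1.70), Fkbp10 (-1.61) and P3h1 (-0.96), then Pcolce2 (-1.42), Pcolce (-1.26) and Bmp1 (-1.53), then Ctsk (-1.32), Timp3 (-0.69) and Mmp2 (-1.14), then Itga11 (-1.66), Ddr2 (-1.51) and Antxr1 (-1.13), and Tgfbr3 (-0.97), Tgfb1 (-1.14) and Ltbp1 (-0.94).

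Markers of cells other than muscle fibres also fell in footprints. This held for 8 of 8 fibroblast markers, 8 of 8 macrophage markers, 7 of 8 endothelial markers, 6 of 8 tendon markers, 6 of 7 mural markers, 5 of 7 adipocyte markers, 4 of 7 Schwann markers and 4 of 8 satellite cell markers tested, beside 3 of 10 muscle fibre markers, 1 of 5 erythroid markers and 15.7% of all genes. Of 7 cartilage markers tested 3 fell and 1 rose, with sums of 173.3 to 300.5 CPM in KO and 234 to 514.4 CPM in control mice. Summed over the list, fibroblast markers ranged from 945 to 1854 CPM in KO footprints, against 1965 to 2678 CPM in control footprints. Endothelial markers ranged from 155.6 to 414 CPM in KO and from 456.6 to 768.6 CPM in control footprints, and macrophage markers from 268 to 667 CPM in KO and from 783 to 1076 CPM in control footprints. None of these 3 sums overlapped between the groups, and in each of them KO mouse b was the highest KO mouse, as it was for Col1a1. Muscle fibre markers ranged from 34980 to 49710 CPM in KO and from 36980 to 44140 CPM in control footprints. In mRNA the fibroblast sum was 1784 to 2567 CPM in KO and 1594 to 2612 CPM in control mice, and 0 of its 8 genes were called. No marker of the fibroblast, endothelial, macrophage or muscle fibre list was at 0 in all libraries. Translation efficiency fell for 7 of 8 endothelial, 6 of 8 tendon and 5 of 8 mural markers (medians -1.455, -0.975 and -1.143). It fell for 2 of 8 fibroblast, 2 of 8 macrophage, 2 of 8 satellite cell, 1 of 8 Schwann and 0 of 8 adipocyte markers. Of muscle fibre markers 0 of 10 fell (median 0.047), beside 6.98% of all genes. The part of these cells in the fall of the collagen footprints and translation efficiency was not tested.

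In control muscle the chains differed widely in how many footprints they had for their mRNA. Both were counted over gene bodies, introns included, and the mRNA may be that of the muscle or of tagged ribosomes. The ratios therefore need not measure ribosomes per mRNA alone. Marker lists differed as well: 7 of 10 muscle fibre and 4 of 8 macrophage markers had more footprints and 0 fewer. Of 8 endothelial markers 6 had fewer and 1 more, and of 8 Schwann markers 5 had fewer and 1 more. Relative to all genes, 22 of 41 chains tested had fewer footprints than mRNA (53.7%, beside 36.8% of 14164 genes) and 8 had more (beside 34.8%). With library totals in place of the normalization by trimmed means (TMM), which moved the median of all genes from -0.03 to -1.34, the split was 32 with fewer and 4 with more. Type VI chains fell on both sides. Col6a6 had footprints of 83.1, 107, 105.6 and 67.7 CPM in control mice, against mRNA of 9.44, 6.98, 16.4 and 14 CPM in the same mice, a log2 ratio of 2.86 (SE 0.236, adjusted p = 1.24e-07). Footprints exceeded mRNA in each mouse, and Col6a5 (2.47) and Col6a3 (1.00) had ratios of the same sign, while Col6a1 and Col6a2 had -0.67 and -0.69. The ratio of Col6a3 changed sign to -0.28 with library totals. Col6a4 and Col25a1 are counted among the 8 but had few mRNA reads, with mRNA counts of 0, 0, 0 and 2 for Col6a4 and 2, 4, 10 and 3 for Col25a1 in control mice, so no ratio is given for them.

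At the other end stood Col7a1, with footprints of 6.18, 6.65, 5.36 and 5.84 CPM and mRNA of 86.3, 75.6, 69.5 and 64.9 CPM in control mice. Its log2 ratio was -3.73 (SE 0.137, adjusted p = 8.35e-11), the lowest of the chains tested. Lower ratios than -1 were also those of Col9a2 (-2.95), Col20a1 (-1.98), Col4a1 (-1.76), Col8a2 (-1.67), Col4a2 (-1.55), Col27a1 (-1.43), Col11a2 (-1.40), Col5a3 (-1.33), Col22a1 (-1.19), Col18a1 (-1.07) and Col24a1 (-1.02). The ratio of Col9a2 rests on very few reads, with footprint counts of 4, 1, 1 and 0 in control mice, so its size is uncertain. Among the chains called, the rest of the lower ones were Col26a1 (-0.92), Col16a1 (-0.77), Col5a1 (-0.69), Col8a1 (-0.67), Col15a1 (-0.64), Col5a2 (-0.61), Col3a1 (-0.59) and Col1a2 (-0.48). Col19a1 (1.37), Col12a1 (1.19) and Col14a1 (1.07) completed the higher ones, of which Col12a1 and Col14a1 changed sign to -0.06 and -0.24 with library totals. Col19a1 was no longer called by edgeR with library totals (adjusted p = 0.815). Of the related lists, the genes with the smallest p had ratios of 1.78 for P3h2, 0.74 for Mia3, which loads procollagen into transport carriers, and 1.69 for Tram2. They were followed by -2.08 for Loxl2, -0.90 for Tgm2, 1.54 for Adamts3, -1.74 for Timp3, -1.86 for Timp2 and -1.12 for Mmp15. Among receptors and regulators the ratios were 1.45 for Itga1, 1.86 for Itga2 and 1.00 for Ddr2, and -2.26 for Tgfb3, -1.57 for Ski and -1.27 for Ltbp3.

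**Figure D3:**
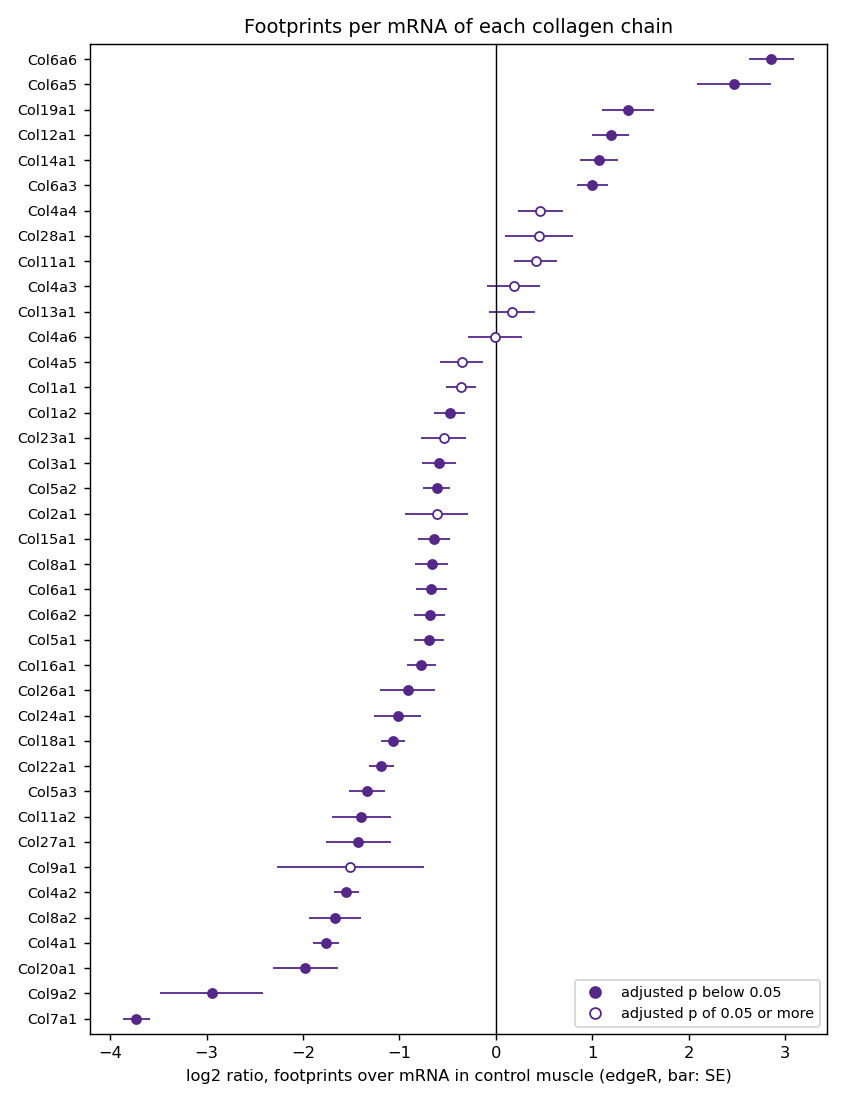
Log2 ratio of footprints over mRNA in the 4 control mice (x axis) for the chains tested other than Col6a4 and Col25a1 (y axis, ordered), with bars for 1 SE and filled circles for an adjusted p below 0.05. Col7a1 is lowest at -3.73, Col6a6 highest at 2.86, and the type VI chains Col6a3, Col6a5 and Col6a6 lie to the right of Col6a1 and Col6a2.

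In poly(A) RNA the KO was compared with 2 kinds of control, in tables that share the 5 KO libraries. Values there are log2 values deposited by the authors after a transform of an unnamed kind that may compress changes. Against Cre-negative mice 12 of 41 chains fell (29.3%, beside 9.22% of 13732 genes) and 1 rose (beside 6.04%), with a median change of -0.11 against 0.00 over all genes. Against mice given oil 21 of 40 chains fell (52.5%, beside 13.5% of 13754 genes) and 2 rose (beside 9.89%), with a median of -0.13 against 0.00. Against oil the count was 12 without oil mouse P1905 and 13 without oil mouse P1910. Tamoxifen itself differs between the KO and the oil group, and the presence of Cre differs between the KO and the Cre-negative group.

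Col7a1 rose against both. Its log2 values were 9.07, 9.10, 9.49, 9.42 and 9.16 in KO mice, against 8.88, 8.79, 8.77 and 8.77 in Cre-negative mice. All KO mice were above all Cre-negative mice, a rise of 0.45 (SE 0.0754, adjusted p = 0.00124). Against oil mice, with 8.92, 8.92, 8.92 and 8.84, the rise was 0.40 (SE 0.08, adjusted p = 0.00288). In the authors' deposited tables its log2 fold changes are 0.64 against Cre-negative mice and 0.56 against oil. Col20a1, a fibril-associated chain, rose by 0.23 against oil (adjusted p = 0.000376) and had 0.07 against Cre-negative mice, which did not pass.

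The falls covered fibrillar, type VI and fibril-associated chains. Col6a3 had log2 values of 10.73, 10.71, 10.50, 10.64 and 10.77 in KO mice, against 11.05, 10.97, 11.01 and 10.97 in Cre-negative mice. No KO mouse reached the Cre-negative range, and the change was -0.33 (SE 0.0455, adjusted p = 0.00028). Col6a2 and Col6a1 changed by -0.16 and -0.14. Col5a1 had 10.39, 10.44, 10.22, 10.35 and 10.38 in KO mice, against 10.79, 10.67, 10.61 and 10.53 in Cre-negative mice, again without overlap (change -0.29, SE 0.0507, adjusted p = 0.00155). Col11a1 fell by 0.36, Col1a1 by 0.20, Col1a2 by 0.18, Col27a1 by 0.16 and Col18a1 by 0.18 on the log2 scale. Col22a1 had 9.70, 9.72, 9.49, 9.56 and 9.48 in KO mice, against 9.84, 9.82, 10.04 and 9.80 in Cre-negative mice, without overlap (change -0.29, adjusted p = 0.00481). Col12a1 fell by 0.22 and Col9a1 by 0.16. Col9a1, a cartilage chain, was highest in mouse P1899 and fell by 0.13 without it. Without P1899 the calls of Col1a1 (-0.18, adjusted p = 0.0559), Col12a1 (-0.19, adjusted p = 0.0563), Col6a2 (-0.15, adjusted p = 0.054) and Col6a1 (-0.13, adjusted p = 0.069) were lost. The change of Col2a1 was -0.83 (SE 0.489, adjusted p = 0.298) and -0.07 without P1899.

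Against oil the type VI falls were 0.42 for Col6a3, 0.36 for Col6a6 (adjusted p = 2.74e-05), 0.20 for Col6a2, 0.14 for Col6a1 and 0.07 for Col6a5, so that all 5 chains tested were called. Of the type IV chains 5 of 6 fell, Col4a5 by 0.24, Col4a1 by 0.15, Col4a2 by 0.14, Col4a3 by 0.12 and Col4a4 by 0.12, where against Cre-negative mice the same chains had changes of -0.12, -0.09, -0.10, -0.02 and -0.02 and 0 of 6 were called. Col24a1 had 7.32, 7.31, 7.04, 7.08 and 7.38 in the KO mice of the first table and 7.52, 7.51, 7.19, 7.23 and 7.59 for the same mice in the second, against 7.35, 7.20, 7.52 and 7.38 in Cre-negative mice and 7.83, 7.88, 8.02 and 7.76 in oil mice. It was below the oil mice without overlap (change -0.47, SE 0.0809, adjusted p = 0.00114) and overlapped the Cre-negative mice (change -0.13, adjusted p = 0.263). The difference between these contrasts was not tested, since the tables were normalized separately. The remaining falls against oil were those of Col5a1 (0.32), Col22a1 (0.32), Col11a1 (0.25), Col18a1 (0.24), Col15a1 (0.22), Col5a3 (0.21), Col1a1 (0.17), Col14a1 (0.17), Col27a1 (0.15) and Col9a1 (0.11). With quantile normalization 14 chains fell against oil. The calls of Col6a1, Col6a2, Col4a1, Col4a2, Col5a3, Col15a1 and Col1a1 were lost. That of Col6a1 held in 2 of 11 alternative settings.

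**Figure D4:**
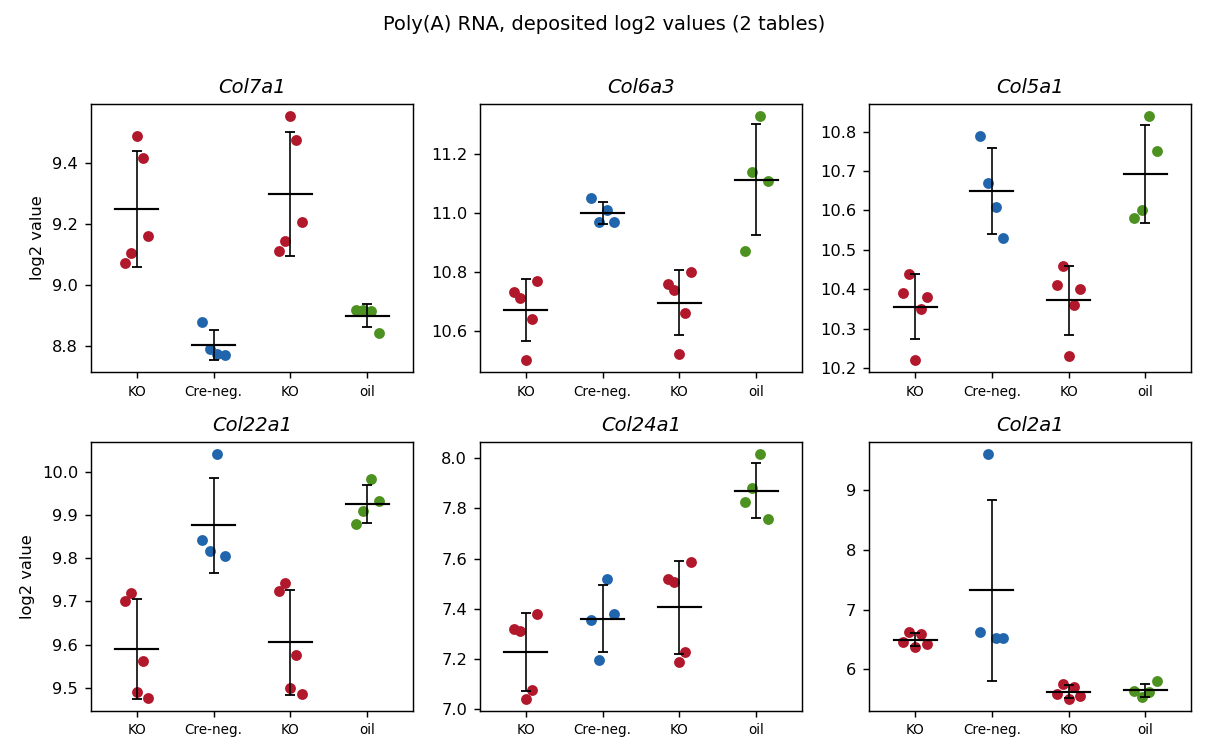
Deposited log2 values of 6 chains in poly(A) RNA (y axis), for KO and Cre-negative mice in the first table and the same KO mice and oil mice in the second (x axis). Points are mice, lines are means and bars 1 SD (n = 5 KO, 4 Cre-negative and 4 oil). Col7a1 is higher in KO mice than in both controls, Col24a1 is lower in KO mice than in oil mice, and 1 Cre-negative mouse lies far above the others in Col2a1, at 9.59.

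The related lists were counted in poly(A) RNA against the shares of all genes called, which were 6.04% higher and 9.22% lower against Cre-negative mice and 9.89% higher and 13.5% lower against oil. Against Cre-negative mice 1 of 20 modification genes fell (Mia3, -0.23), 2 of 13 processing genes fell (Loxl2 -0.13, Loxl4 -0.14), 2 of 13 degradation genes fell and 1 rose (Mrc2 -0.10, Timp3 -0.11, Mmp15 0.12), and 2 of 11 receptors fell (Itga2 -0.11, Ddr1 -0.10). Of 16 TGF-beta regulators 3 rose and 4 fell, among them Skil (-0.24) and Tgfbr1 (-0.12). Against oil 3 of 20 modification genes fell (P4ha2 -0.21, Mia3 -0.24, Serpinh1 -0.18), and of 13 processing genes 3 rose and 2 fell, led by Adamts2 (0.31), Adamts3 (-0.17) and Tgm2 (0.10). Of 13 degradation genes 2 fell (Mmp3 -0.15, Mmp2 -0.12) and of 11 receptors 1 did (Ddr1, -0.14), and of 16 TGF-beta regulators 5 rose and 3 fell, among them Tgfb3 (0.24) and Ltbp3 (0.12). Marker sums here add deposited values taken out of the log scale, which are not tag counts, since the transform is unstated. Fibroblast markers were called for 0 of 8 genes against Cre-negative mice and fell for 2 of 8 against oil. Their sums were 7210 to 7565 in KO mice and 7221 to 7722 in Cre-negative mice. Muscle fibre markers fell for 4 of 10 genes and rose for 1 against Cre-negative mice, and fell for 3 and rose for 2 against oil. Their sums were 74850 to 80530 in KO and 79640 to 83730 in Cre-negative mice, and 75850 to 81620 in KO and 81020 to 84480 in oil mice. Mural markers summed to 8784 to 9102 in KO and 9274 to 9465 in Cre-negative mice, and to 8899 to 9229 in KO and 9361 to 9685 in oil mice, without overlap, with 1 of 8 genes called lower against each. Schwann markers summed to 2540 to 2730 in KO and 2444 to 2539 in oil mice, without overlap, with 3 of 8 genes called higher. All 7 erythroid markers tested were higher in KO than in oil mice, with sums of 929 to 977 in KO and 856 to 897 in oil mice. The part of other cells in the poly(A) changes was not tested.

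Nascent RNA, counted over whole gene bodies, moved in both directions after FX1 in wild-type muscle. Of 40 chains tested 8 rose (20%, beside 10.5% of 15683 genes) and 7 fell (17.5%, beside 10.1%), with a median of 0.05 against 0.00 over all genes. Col5a1 had log2 values of 12.64, 13.12, 11.93, 11.03 and 11.60 after FX1, against 10.05, 10.63, 10.63, 10.38 and 10.50 after DMSO. All FX1 samples were above all DMSO samples, a rise of 1.63 (SE 0.328, adjusted p = 0.0056). Col5a2 rose by 1.02, Col11a1 by 0.95 and Col24a1 by 0.87, so that 4 of 11 fibrillar chains rose and 0 fell, with Col1a1 at -0.37, Col1a2 at -0.10 and Col3a1 at 0.36 among those not called. Col4a1 had 12.74, 12.55, 11.40, 12.45 and 12.71 after FX1, against 10.80, 11.53, 11.64, 10.91 and 11.35 after DMSO. FX1 sample 3 lay within the DMSO range and the other FX1 samples above it (rise 1.12, SE 0.259, adjusted p = 0.0111). Col4a2 rose by 1.2, and the hexagonal network chains Col10a1 and Col8a2 by 0.62 and 0.51. Col10a1 overlaps the gene Nt5dc1, and Col4a1 and Col4a2 overlap each other at their starts, so that reads counted without strand could belong to either.

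Of 5 type VI chains tested after FX1, 3 fell. Col6a1 had 7.98, 7.54, 6.95, 7.98 and 7.92 after FX1, against 8.09, 8.65, 8.52, 8.34 and 8.53 after DMSO. The groups did not overlap, and the fall was 0.75 on the log2 scale (SE 0.198, adjusted p = 0.0204), with Col6a3 falling by 0.78 and Col6a2 by 0.66. Col13a1, a transmembrane collagen known from the neuromuscular junction, fell by 0.82, without overlap. Col14a1 fell by 0.64, Col22a1 by 0.55 and Col20a1 by 0.34. The count of falls rests on single samples. It was 2 without DMSO sample 2, 2 without DMSO sample 3, 3 without DMSO sample 5 and 2 without FX1 sample 2. Col7a1 had 6.76, 6.53, 6.60, 6.43 and 6.46 after FX1 and 6.53, 6.58, 6.92, 7.06 and 6.36 after DMSO, with overlapping groups (change -0.14, adjusted p = 0.546).

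Among related genes after FX1, beside 10.5% of all genes higher and 10.1% lower, 3 of 21 modification genes rose and 4 fell, led by Tram2 (0.86), Colgalt1 (-0.73) and Plod2 (1.24). Of 13 processing genes 3 rose, Tgm2 by 1.79, Adamts2 by 1.45 and Adamts14 by 1.19, and 0 fell. Of 12 degradation genes 1 fell (Mmp15, -0.88), and of 11 receptors 1 rose and 2 fell (Lair1 -0.56, Ddr1 -0.61, Antxr2 0.80). Of 16 TGF-beta regulators 6 rose and 0 fell, among them Tgfbr3 (1.05) and Tgfb3 (0.78). Muscle fibre markers fell for 6 of 10 genes after FX1, and fibroblast markers were called for 0 of 8 genes. The muscle fibre sums, of deposited values taken out of the log scale, were 754000 to 1166000 after FX1 and 1470000 to 1802000 after DMSO. Satellite cell markers summed to 2617 to 5108 after FX1 and 1745 to 2207 after DMSO. Of these 8 genes 1 was called higher (Sdc4, 1.07) and 1 lower (Cdh15, -0.94), and 3 had negative changes. Adipocyte markers summed to 13690 to 16670 after FX1 and 10450 to 13550 after DMSO. Of these 8 genes 1 was called higher (Plin4, 0.54) and 4 lower (Adipoq -1.49, Retn -0.90, Cfd -0.98 and Plin1 -0.89), and 5 had negative changes. In both lists single genes moved in both directions, so the sums do not stand for the list or for a number of cells. The FX1 and DMSO samples did not overlap in the sums of muscle fibre, satellite cell or adipocyte markers. The part of this in the collagen changes was not tested.

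**Figure D5:**
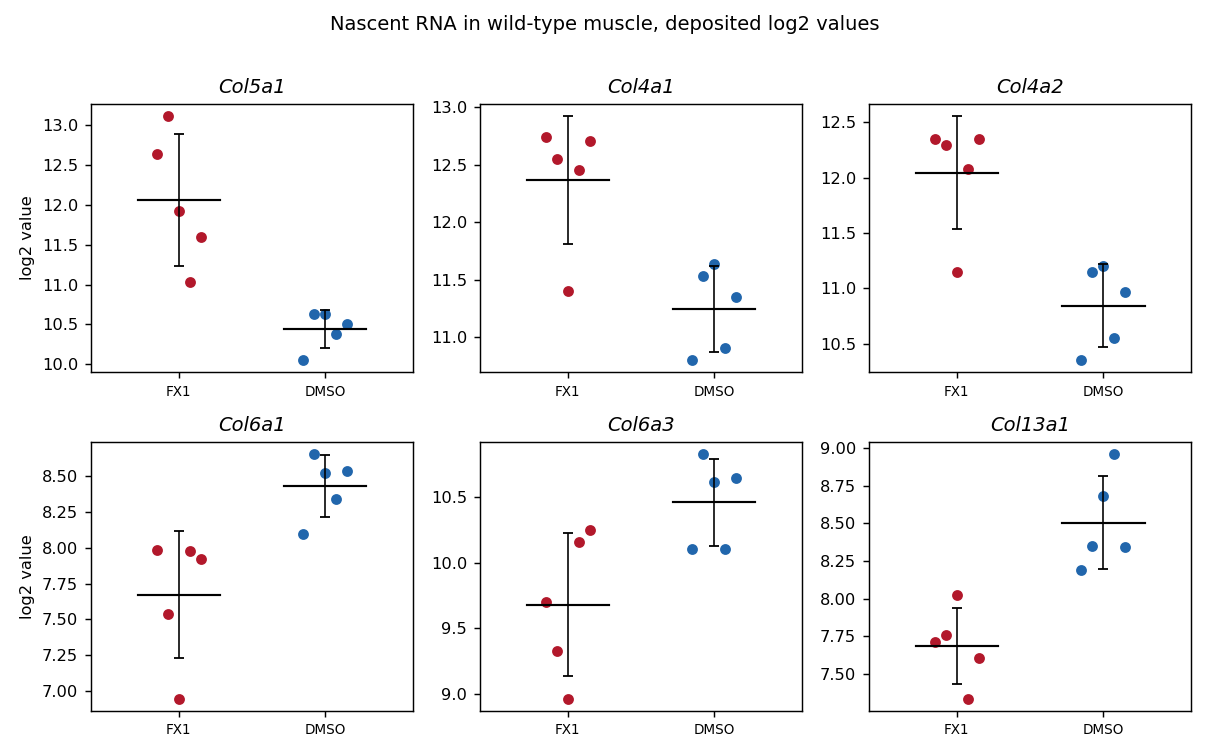
Deposited log2 values of 6 chains in nascent RNA (y axis) after FX1 and after DMSO (x axis) in wild-type muscle. Points are samples, lines are means and bars 1 SD (n = 5 each). Col5a1 is higher after FX1 and Col6a1 and Col13a1 lower, without overlap. In Col4a1 (11.40) and Col4a2 (11.15) 1 FX1 sample lies near the DMSO samples.

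BCL6 peaks in wild-type muscle lay within 1000 bp of the start of 4 of 44 chain genes (9.09%, beside 7.48% of 24929 genes), Col11a2, Col12a1, Col16a1 and Col22a1. Peaks lay in the gene body of 21 chains (47.7%, beside 16.6% of all genes), but chain genes are long, with a median of 114 kb against 13.97 kb over all genes. The peak score is the authors' own and has a median of 23.3 over 10925 peaks. Coordinates are on mm10. The peak at Col16a1, at chr4:130047757-130047977, is centred 27 bp after the start (score 28.2), that at Col22a1, at chr15:72034090-72034310, 27 bp after the start (score 30.6), that at Col12a1, at chr9:79719321-79719541, at -709 bp from the start (score 28.2), and that at Col11a2, at chr17:34039955-34040175, 927 bp after it in an intron (score 50.2). The highest score at a chain gene was 117.6, in an intron of Col6a6, followed by 77.2 in an intron of Col18a1 and 58.8 in an intron of Col2a1. Col7a1 has a peak in an intron 10126 bp after its start (score 22.1).

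RefSeq promoter sequences were matched for 35 of the 44 chains. The 250 bases before the start are shown for Col16a1, whose BCL6 peak lies over its start, for Col11a2, which had the highest peak score within 1000 bp of a start, and for Col7a1, which rose in each KO poly(A) and mRNA comparison. All 3 are on the plus strand of GRCm38.p6, the build behind mm10, at chr4:130047590-130047839, chr17:34038888-34039137 and chr9:108953336-108953585. Capitals mark the GC box GGGCGG, the CCAAT box and the TATA box TATAAA, searched on both strands without mismatch.
Col16a1: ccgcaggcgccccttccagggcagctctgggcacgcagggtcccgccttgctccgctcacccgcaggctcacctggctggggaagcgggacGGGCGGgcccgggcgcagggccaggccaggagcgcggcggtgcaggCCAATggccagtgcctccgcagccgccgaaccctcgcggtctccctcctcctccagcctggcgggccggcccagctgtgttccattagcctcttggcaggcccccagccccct
Col11a2: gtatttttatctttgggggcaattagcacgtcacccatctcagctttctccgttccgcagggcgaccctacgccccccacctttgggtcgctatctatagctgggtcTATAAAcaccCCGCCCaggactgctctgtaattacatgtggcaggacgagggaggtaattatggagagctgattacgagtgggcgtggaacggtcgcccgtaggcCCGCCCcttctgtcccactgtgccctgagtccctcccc
Col7a1: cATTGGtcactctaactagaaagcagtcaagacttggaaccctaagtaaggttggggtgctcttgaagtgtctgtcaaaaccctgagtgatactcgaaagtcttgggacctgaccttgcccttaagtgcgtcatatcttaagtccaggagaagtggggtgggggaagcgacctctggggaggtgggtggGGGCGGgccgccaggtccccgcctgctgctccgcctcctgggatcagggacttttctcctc
Col16a1 holds a GC box and a CCAAT box, Col11a2 a TATA box and 2 GC boxes, and Col7a1 a GC box and a CCAAT box. The bases shown for Col16a1 also lie within the long noncoding RNA gene Gm12963. A GC box is in 21 of the 35 chain promoters and in 32.7% of 32851 promoters of the same length, a CCAAT box in 13 of 35 and 33.8%, and a TATA box in 5 of 35 and 12.4%. The palindrome TTCNNNGAA, the core shared by BCL6 and STAT sites, is in 2 of 35 chain promoters (Col28a1 and Col6a5) and in 7.02% of all, and in none of the 3 shown. The RefSeq start of Col7a1 lies at 108953586, before the start of 108953745 in the deposited table.

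H3K27ac was measured in 287 acute regions at 37 chain genes. In the acute series 166 regions at 33 chains, 16 of them promoters, passed the filter and 0 were called by limma in either direction (beside 0.147% of 54514 regions called higher and 0.00734% lower). Of these, 16 had an unadjusted p below 0.05, 12 lower and 4 higher in KO, and edgeR on recovered reads called 0. In the chronic series 132 regions were tested and 0 were called (beside 0.236% of 51220 regions higher and 0.0176% lower), with 7 at an unadjusted p below 0.05, all higher, and 0 by edgeR. The region with the smallest p there, chr5:136869486-136870208 in an intron of Col26a1, had 37.6, 53.5 and 31.6 tags per 10000000 in KO and 17.2, 12.8 and 22.6 in Cre-negative mice. The groups did not overlap (change 1.18, adjusted p = 0.166). On 1000 bp windows at BCL6 peaks 14 windows of 13 chains were tested and 0 were called (beside 18% of 7998 windows higher and 1.58% lower, 3 at an unadjusted p below 0.05, and 1 called lower and 0 higher by edgeR on recovered reads). The window of Col7a1 had 28.9, 72.6 and 56.5 in KO mice and 24.7, 28.5 and 30.1 in Cre-negative mice, which overlap, a change of 0.81 (SE 0.271, adjusted p = 0.051). The window of Col11a2 had 79.7, 92.9 and 77.0 in KO mice, against 61.3, 67.0 and 56.8 in Cre-negative mice, without overlap (change 0.42, adjusted p = 0.055), and that of Col5a1 had a change of -0.58 (adjusted p = 0.0818).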

How the data were processed

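Values came from 9 deposited tables covering 58 of 74 samples. The authors mapped reads with Bowtie 1.2 or STAR 2.4.0 and used HOMER and DESeq2 1.14.1 on mm10, per the submitters' processing notes, which do not say which tool served which data. Poly(A) tags were counted over exons on both strands, per the file headers, and the authors deposited log2 values made from them by an unstated transform. The deposited nascent log2 values are from tags over gene bodies, per the file headers. RiboTag values are raw counts over gene bodies, introns included, with at most 5 tags per position, per the file headers. The H3K27ac signal is tags in a region scaled to 1e+07 per library, per the file headers. Each BCL6 peak has a score from the authors' peak caller. The authors' deposited tables also hold log2 fold changes, adjusted p-values and, for translation efficiency, a ratio of footprints to mRNA.

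Poly(A), nascent and H3K27ac values (the last as log2 of signal plus 1) were tested with limma 3.58.1 with a mean-variance trend. Features needed a mean log2 value of at least 3.32, or for H3K27ac a mean signal of at least 10. RiboTag counts were tested with edgeR 4.0.16 by the quasi-likelihood test with TMM scaling and a minimum count of 10, and translation efficiency by the interaction term. P-values were adjusted by Benjamini-Hochberg over all features tested in R 4.3.3, at a threshold of 0.05. Scripts were tested on simulated data. H3K27ac signal could be turned back into whole reads for 100% of values within 0.05 tags, and edgeR on these reads called 177 acute, 387 chronic and 1389 window regions of all tested, where limma called 84, 130 and 1562. Alternatives were DESeq2 1.42.0, other scalings and filters, a replicate block and leaving out each library. Python 3.11.15 made the figures.

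Chains were named with values where they passed a test in any comparison or were among the 3 highest per kilobase in controls, and related lists by up to 3 called genes with the smallest p in each comparison. Other chains and list totals were added to account for every member. Of the genes that this rule names, 1 is not reported here. The members, lists and tests were chosen with earlier results of these data known. The labels tie footprint and mRNA libraries to the same animals. Their deviations from the group means correlated at 0.26, -0.06, 0.04 and 0.32 in KO mice and at 0.41, 0.10, 0.11 and 0.09 in control mice. Where the labels give replicates only a number, as in nascent RNA, p-values measure the spread between these samples, which may be technical. Chronic RNA, input and wild-type H3K27ac libraries were not used here.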

Additional observations from a re-analysis of the deposited data

Results flagged for a closer look

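Of 148 sets of 4 or 5 libraries of 1 group and chain called, 19 held a library far from the others of its group by Dixon's test. For a single set chance gives about 1 in 20. The sets are not independent, because both poly(A) tables share the KO libraries and the same library recurs over several chains. The count was therefore not compared with chance. In nascent RNA, FX1 sample 3 was low for Col11a1 (log2 value 8.85, the next FX1 sample 9.69), Col4a1 (11.4, next 12.45), Col4a2 (11.15, next 12.08) and Col5a2 (10.55, next 11.46), each of which rose with FX1. In the poly(A) table with Cre-negative mice, KO mouse P1900 was low for Col18a1 (8.90, next 9.09), Col6a1 (10.67, next 10.81) and Col6a2 (10.54, next 10.70). The same mouse was low in the table with oil mice for Col18a1 (8.91), Col6a1 (10.69) and Col6a2 (10.56). Cre-negative mouse P1906 was high for Col22a1 (10.04), Cre-negative mouse P1898 was high for Col7a1 (8.88) and Cre-negative mouse P1899, which carries cartilage RNA, was high for Col9a1 (4.74, next 4.59). Oil mouse P1910 was low for Col4a3 (6.44, next 6.58) and for Col7a1 (8.84, next 8.92).

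In footprints, KO mouse b of the RiboTag mice was above the other KO mice for Col12a1 (304 CPM, next 142.5), Col14a1 (120.7 CPM, next 63.3), Col1a1 (1174 CPM, next 765.5) and Col5a1 (129.9 CPM, next 77.4). This mouse also had the highest fibroblast, endothelial and macrophage marker sums of the KO footprints, and the part of these cells was not tested.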

How the results depend on the processing

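Counts of chains called depended on the processing as follows. Against Cre-negative mice 12 chains fell, 7 with quantile normalization and 3 with no filter. Against oil 21 fell, 14 with quantile normalization and 8 with no filter. In RiboTag mRNA 1 chain rose, 2 with DESeq2 and 2 with no filter, and in footprints 0 rose, 1 with no filter. Translation efficiency fell for 16 chains, for 4 with library totals and for 0 without KO mice c and d. Footprints over mRNA were higher for 8 chains, and with library totals for 4, where Col12a1 (-0.060), Col6a3 (-0.28) and Col14a1 (-0.24) changed sign, which follows from the shift of all genes by that scaling. In nascent RNA 7 chains fell, 3 with no filter. For windows, limma called 0 and 0, 1 higher with a pseudocount of 5, and edgeR on recovered reads 1 lower. BCL6 peaks lay near the start of 4 chains, of 9 within 5000 bp, and in the body of 21, of 13 for the higher-scoring peaks. Other causes were not tested.

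Leaving out 1 library at a time gave 8 to 17 chains lower and 1 to 2 higher against Cre-negative mice, 12 to 25 lower and 2 higher against oil, 0 to 1 lower and 1 to 3 higher in mRNA, and 18 to 23 lower and 0 higher in footprints. It gave 4 to 19 lower and 0 higher in translation efficiency, 20 to 24 lower and 8 to 9 higher for footprints over mRNA, 2 to 6 lower and 6 to 11 higher in nascent RNA, 0 in acute and chronic H3K27ac, and 0 lower and 0 to 1 higher for windows. With the animal as a replicate block 20 chains fell in translation efficiency, and 9 were higher and 24 lower for footprints over mRNA. Nascent replicate numbers do not pair the samples (correlations of -0.43 to 0.18), and with them as a block 2 chains fell and 6 rose.

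Of the chains called, 14 of 22 in footprints, 0 of 16 in translation efficiency, 4 of 13 against Cre-negative mice, 10 of 23 against oil, 7 of 15 in nascent RNA and 24 of 30 for footprints over mRNA passed under every alternative run. Col7a1 mRNA did so as well. Col6a4 and Col10a1 did not pass the filter on low counts in RiboTag mRNA.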
